A study of Mus musculus with 12 samples.

Results

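Myrf and 7 further transcription factors that act in oligodendrocyte differentiation (Zfp488, Tcf7l2, Zeb2, St18, Zfp536, Prox1 and Yy1) were followed in RNA sequencing of mouse O4+ cells. They were picked by gene symbol, with earlier results of these data known, from the 14107 genes of the count table, and all 8 were present and passed the filter on low counts. The 5 Chd7iKO libraries came from pups that carried a Cre under the PDGFRa promoter, active in oligodendrocyte precursors, together with both floxed Chd7 alleles (PDGFRaCre; Chd7flox/flox). The 7 Control libraries came from littermates with Chd7flox/flox and no Cre in the label. Pups of either genotype were given subcutaneous tamoxifen (20 mg/ml), with 40 µl on day 1 after birth and 30 µl on day 4, and O4+ cells of cortex and corpus callosum were taken by magnetic sorting at postnatal day 7. The labels list no Cre-only pups, which means that Cre and Chd7 deletion cannot be told apart. They do not say how many pups made a library. The p-values therefore measure the spread between these libraries, which may in part be technical.

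Oligodendrocytes are the myelin-making glia of the central nervous system, and the O4 antibody binds sulfated lipids on late precursors and immature oligodendrocytes. Precursors leave the cell cycle and turn on a chain of transcription factors before they make myelin. Myrf stands late in this chain: it is made as a membrane-bound protein, cuts itself free and then switches on myelin genes in the nucleus. Zfp488 is a zinc finger protein that works with Olig2, and Tcf7l2 is a DNA-binding partner of beta-catenin in Wnt signalling that is transiently high in newly differentiating oligodendrocytes. Zeb2 counters the inhibitory BMP and Notch signals, and Yy1 recruits histone deacetylases and is needed for precursors to differentiate. St18 belongs to the Myt1 zinc finger family, Zfp536 has been described as a repressor of neuronal differentiation in cultured mouse cells, and Prox1 is a homeobox factor that acts in oligodendrocyte and neuronal fate.

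Total estimated counts were 30384507 to 35512311 per library. Summed markers of the oligodendrocyte lineage (8 genes, among them Olig2, Sox10, Pdgfra and Mbp) stood at 12540 to 14763 CPM in Chd7iKO and 15228 to 19083 CPM in Control libraries, where CPM is the usual count per library size after scaling between libraries (TMM). The labelled cell type was thus present in every library, but its sum was lower in every Chd7iKO library than in any Control. Of the 8 lineage markers, 3 were lower in Chd7iKO cells (edgeR adjusted p under 0.05) and 0 higher, beside 13.8% of all genes lower. The sort also held other cells, since the 8 astrocyte markers summed to 3012 to 4863 CPM in Chd7iKO and 2913 to 6567 CPM in Control libraries. Of the microglial, endothelial and mural marker genes, 7 of 10, 7 of 8 and 7 of 8 were higher in Chd7iKO cells, beside 15.8% of all genes. Of these lists, 0 markers were at 0. Their sums were 389 to 503, 249 to 610 and 309 to 819 CPM in Chd7iKO, against 187 to 434, 138 to 365 and 124 to 363 CPM in Control libraries. They were highest in Chd7iKO 4 and 5. Chd7 itself had 242 ± 28.9 CPM in Chd7iKO (SD, n = 5) and 236 ± 30.9 CPM in Control libraries (SD, n = 7). Its reads are summed over the whole gene and the labels do not name the floxed exons, so this level does not check the deletion. Controls 3 and 6 stood apart from the other Controls in Esr1, the estrogen receptor gene. Esr1 was at 138 to 171 CPM in Chd7iKO libraries, 81.7 CPM in Control 3, 44.7 CPM in Control 6 and 0.532 to 1.26 CPM in the other 5 Controls. The source of these reads, the gene itself or other sequence, was not tested. Whether the labels of these 2 libraries hold could not be settled from the files, and every Control mean includes them unless stated otherwise. The factors and ratios are therefore also given without these 2 Controls, and without Chd7iKO 4 and 5.

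The starts of 3 factors that fell (Zfp488, Tcf7l2 and Zeb2) and of Prox1, which did not pass the test, are shown as the 250 bases before the most upstream start in the RefSeq promoter table (GRCm38.p6, the build mm10). They lie at chr14:33978765-33979014 (minus strand), chr19:55741560-55741809 (plus), chr2:45117443-45117692 (minus) and chr1:190170828-190171077 (minus), and are written 5′ to 3′ in lower case. Capitals mark exact matches, on both strands, to any of 7 short motifs.
Zfp488: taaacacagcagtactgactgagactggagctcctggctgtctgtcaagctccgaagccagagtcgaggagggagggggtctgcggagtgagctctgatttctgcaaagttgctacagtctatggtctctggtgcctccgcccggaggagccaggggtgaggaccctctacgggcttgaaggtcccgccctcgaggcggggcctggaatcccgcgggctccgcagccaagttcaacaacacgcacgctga
Tcf7l2: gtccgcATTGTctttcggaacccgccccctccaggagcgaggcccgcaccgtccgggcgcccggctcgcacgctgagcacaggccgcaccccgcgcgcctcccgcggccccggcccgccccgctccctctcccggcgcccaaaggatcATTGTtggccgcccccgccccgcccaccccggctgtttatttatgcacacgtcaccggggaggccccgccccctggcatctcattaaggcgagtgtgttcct
Zeb2: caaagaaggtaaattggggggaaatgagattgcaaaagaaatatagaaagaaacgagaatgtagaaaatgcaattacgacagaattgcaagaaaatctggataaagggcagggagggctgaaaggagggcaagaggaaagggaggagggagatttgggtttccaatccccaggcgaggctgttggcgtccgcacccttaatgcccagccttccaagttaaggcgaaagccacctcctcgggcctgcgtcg
Prox1: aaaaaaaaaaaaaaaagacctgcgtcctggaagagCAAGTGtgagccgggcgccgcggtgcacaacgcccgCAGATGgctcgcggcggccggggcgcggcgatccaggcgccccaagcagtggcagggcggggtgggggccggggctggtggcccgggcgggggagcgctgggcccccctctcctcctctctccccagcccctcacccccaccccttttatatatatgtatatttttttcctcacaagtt
The motifs were CANNTG (E-box), CACCTG (the E-box form bound by Zeb factors), ACAAAG and ACAAT (Sox), CTTTGA (Tcf/Lef), CTGGCAC (Myrf) and CCATNTT (Yy1 core). The Tcf7l2 start held 2 ACAAT matches and no other motif, beside 27.7% of all 32851 starts in the table that held ACAAT. The Prox1 start held 2 E-boxes, which 66.2% of all starts had, and the Zfp488 and Zeb2 starts shown held 0 matches to any motif. Of the other starts in the table, the second of Tcf7l2, the second of Prox1 and the most downstream of Zeb2 held 1 ACAAAG match each. The shares for the other motifs were 17.2% for CACCTG, 16.5% for ACAAAG, 13.8% for CTTTGA, 4.19% for CTGGCAC and 12.4% for CCATNTT. Of the 8 factors, 6 had an entry in the table, and a match or its absence is only a statement on the letters of this window.

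Of the 8 factors, 5 were lower in Chd7iKO cells and 0 higher, namely Myrf, Zfp488, Tcf7l2, Zeb2 and St18. The background of this comparison is large, since 13.8% of all genes tested were called lower and 29.5% were called in either direction. A call means an adjusted p under 0.05 in the two-sided quasi-likelihood test of edgeR, adjusted by Benjamini-Hochberg over all genes. The median log2 fold change of the 8 factors was -0.40, beside 0.00 over all tested genes. The groups did not overlap for 2 factors, Zfp488 and Tcf7l2, while every Chd7iKO library was below every Control in 6.32% of all genes and above every Control in 6.2%. Without Controls 3 and 6 the factors called lower numbered 6, beside 1989 of the 14105 genes tested. Without Chd7iKO 4 and 5 the factors called lower numbered 4, beside 839 genes. The fit of all libraries called 1943 genes lower. With a score of astrocyte, neuronal, microglial, endothelial and mural markers as a covariate, 2 were called (Myrf and Tcf7l2), beside 579 genes called lower. This score was -0.019 to 0.67 in Chd7iKO and -0.58 to 0.23 in Control libraries. It thus goes partly with genotype, and why a call was lost with it was not tested. In the fit of all libraries without covariate, 3 factors were lower at an edgeR adjusted p under 0.01, beside 960 genes.

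**Figure D1:**
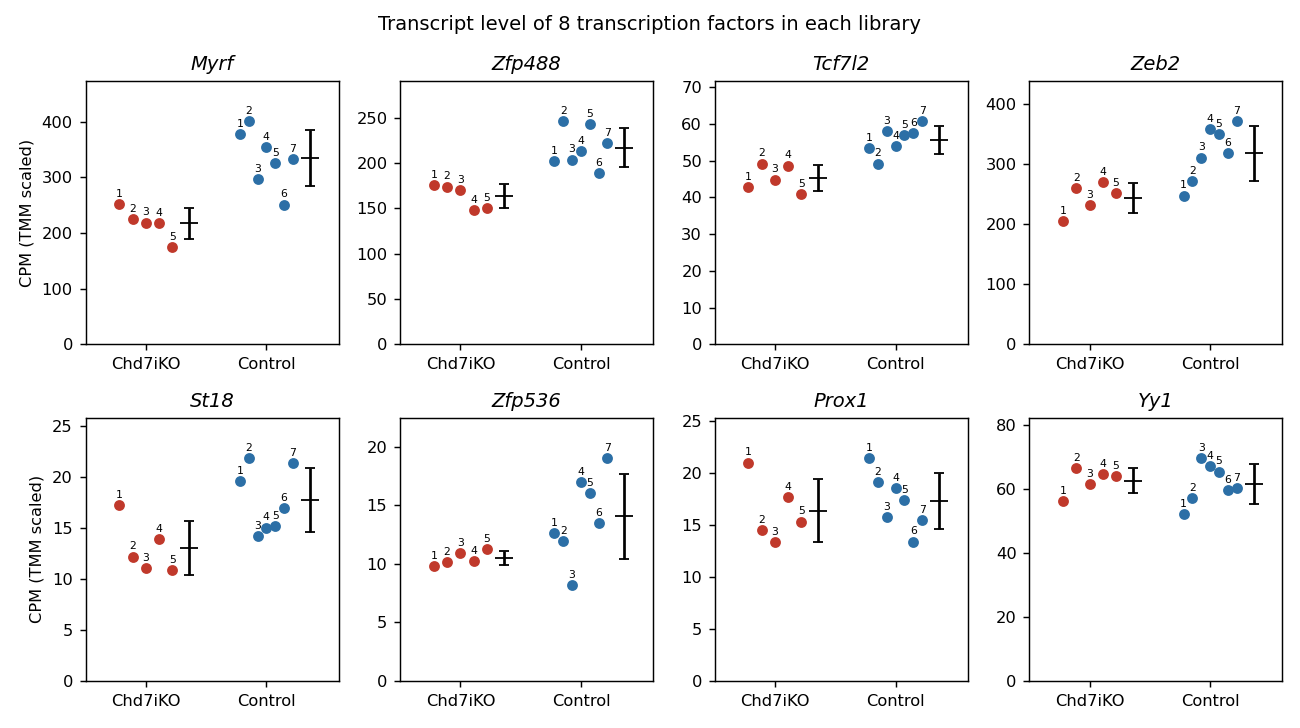
Level of each factor in CPM (y axis, from 0) in the 5 Chd7iKO (left) and 7 Control libraries (right). Points are libraries with their number, and bars are the mean ± SD. Zfp488 and Tcf7l2 show no overlap between the groups, Myrf overlaps only through Chd7iKO 1 and Control 6, and Prox1 and Yy1 overlap throughout.

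Myrf lies on chromosome 19 from 10208272 to 10240748 (minus strand, mm10) and had the largest fall of the 8. It had 252, 225, 219, 218 and 174 CPM in Chd7iKO 1 to 5, against 378, 401, 296, 354, 326, 251 and 332 CPM in Control 1 to 7. Chd7iKO 1, the highest of its group, stood just above Control 6, the lowest Control, and the other 4 Chd7iKO libraries were below every Control. The mean was 218 ± 27.8 CPM in Chd7iKO (SD, n = 5) and 334 ± 50.4 CPM in Control libraries (SD, n = 7). Myrf fell by 34.9%, with a 95% interval of -0.86 to -0.38 around the log2 fold change of -0.62 (SE 0.11, edgeR adjusted p = 0.00139). The call held when any single library was left out, with log2 fold changes of -0.68 to -0.55. It was -0.72 without Controls 3 and 6 and -0.53 without Chd7iKO 4 and 5 (edgeR adjusted p = 0.0188). With the marker score as a covariate it was -0.48 (edgeR adjusted p = 0.0435). Fewer cells of a type and less RNA per cell cannot be told apart in such bulk samples.

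Zfp488, the Olig2 partner, lies on chromosome 14 from 33967070 to 33978764 (minus strand). Its level was 176, 174, 170, 148 and 151 CPM in Chd7iKO 1 to 5, against 203, 246, 204, 213, 243, 189 and 222 CPM in Control 1 to 7. Every Chd7iKO library was below every Control, with Control 6 again the lowest Control. Zfp488 fell by 24.6%, with a log2 fold change of -0.41 (SE 0.073, edgeR adjusted p = 0.00140), -0.46 without Controls 3 and 6 and -0.32 without Chd7iKO 4 and 5. With the marker score as a covariate its log2 fold change was -0.27 and the call was lost (edgeR adjusted p = 0.0513).

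Tcf7l2, the Wnt effector, lies on chromosome 19 from 55741820 to 55933654 (plus strand). It had 42.8, 49.2, 44.8, 48.7 and 40.9 CPM in Chd7iKO 1 to 5, against 53.3, 49.2, 58.0, 54.0, 57.1, 57.5 and 60.8 CPM in Control 1 to 7. The groups touched, with Chd7iKO 2 and Control 2 nearly equal, but every Chd7iKO library was below every Control. Tcf7l2 fell by 18.7%, the least of the 5 called (log2 fold change -0.30, SE 0.064, edgeR adjusted p = 0.00409). Over the alternatives it varied little, from -0.33 to -0.26 in all 24, with -0.27 without Controls 3 and 6 and -0.29 without Chd7iKO 4 and 5, and was -0.33 with the marker score as a covariate (edgeR adjusted p = 0.0326).

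Zeb2, the opponent of BMP and Notch signals, lies on chromosome 2 from 44983632 to 45117395 (minus strand). Its level was 205, 259, 231, 269 and 252 CPM in Chd7iKO 1 to 5, against 247, 271, 311, 358, 349, 319 and 371 CPM in Control 1 to 7. The groups overlapped through Control 1, which lay within the Chd7iKO range, and the other 6 Controls were above every Chd7iKO library. Zeb2 fell by 23.5% (log2 fold change -0.39, SE 0.10, edgeR adjusted p = 0.0128), and stood at -0.39 without Controls 3 and 6 and -0.46 without Chd7iKO 4 and 5. Microglia also express Zeb2, and their marker sums were 389 to 503 CPM in Chd7iKO and 187 to 434 CPM in Control libraries. Their part in the Zeb2 value was not tested. With the marker score as a covariate the log2 fold change was -0.41 and the call was lost (edgeR adjusted p = 0.0906). An antisense gene, Zeb2os, shares 653 bases, or 3.27% of the Zeb2 exons, and did not pass the test (log2 fold change -0.13, edgeR adjusted p = 0.489). Reads in the shared bases cannot be assigned with certainty, since no source used here says whether counting used strand.

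St18, of the Myt1 family, lies on chromosome 1 from 6487231 to 6860940 (plus strand) and was expressed at a low level. It had 17.2, 12.2, 11.0, 13.9 and 10.9 CPM in Chd7iKO 1 to 5, against 19.6, 21.9, 14.2, 15.0, 15.2, 16.9 and 21.4 CPM in Control 1 to 7. Chd7iKO 1 lay among the Controls and the other 4 Chd7iKO libraries were below all of them. St18 fell by 26.5% (log2 fold change -0.44, SE 0.14, edgeR adjusted p = 0.0331), but the call was lost without Control 1, 2 or 7 or Chd7iKO 2, 3, 4 or 5 (edgeR adjusted p = 0.0547 to 0.0965). Without Chd7iKO 1 its log2 fold change was -0.57 (edgeR adjusted p = 0.00865), and without Chd7iKO 4 and 5 it was -0.40 (edgeR adjusted p = 0.164). With the marker score as a covariate it was -0.49 (edgeR adjusted p = 0.134).

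Zfp536, on chromosome 7 from 37472135 to 37773641 (minus strand), did not pass the test with all libraries. It had 9.83, 10.1, 10.9, 10.2 and 11.3 CPM in Chd7iKO 1 to 5, against 12.6, 11.9, 8.21, 17.0, 16.0, 13.5 and 19.1 CPM in Control 1 to 7. The Chd7iKO libraries were close together, while Control 3 lay below all of them and the other 6 Controls above. The coefficient of variation was 5.71% in Chd7iKO and 25.8% in Control libraries. The log2 fold change was -0.42 (SE 0.16, 95% interval -0.78 to -0.07, edgeR adjusted p = 0.0675), a size like that of St18 and Zfp488. The call depended on both the libraries and the test. In edgeR the log2 fold change was -0.52 without Control 3 (adjusted p = 0.00816) and -0.55 without Controls 3 and 6 (adjusted p = 0.00727). It was not called without Control 7 (-0.33, edgeR adjusted p = 0.128), without Chd7iKO 4 and 5 (-0.45, adjusted p = 0.187) or with the marker score as a covariate (-0.51, adjusted p = 0.179). With all libraries, DESeq2 (adjusted p = 0.0402) and limma voom (adjusted p = 0.00565) called Zfp536 lower, and in the authors' deposited table its adjusted p was 0.0461.

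Prox1 and Yy1 showed no difference that this design could detect. Prox1, on chromosome 1 from 190118035 to 190170714 (minus strand), had 21.0, 14.5, 13.4, 17.7 and 15.3 CPM in Chd7iKO 1 to 5, against 21.5, 19.2, 15.8, 18.6, 17.4, 13.4 and 15.5 CPM in Control 1 to 7. The ranges overlapped almost fully (log2 fold change -0.08, SE 0.13, 95% interval -0.36 to 0.20, edgeR adjusted p = 0.691). Yy1, on chromosome 12 from 108792973 to 108820148 (plus strand), had 56.3, 66.6, 61.5, 64.7 and 64.1 CPM in Chd7iKO 1 to 5, against 52.1, 57.1, 69.8, 67.3, 65.5, 59.7 and 60.3 CPM in Control 1 to 7. Yy1 stood at a log2 fold change of 0.02 (SE 0.072, edgeR adjusted p = 0.851), and the 95% interval of -0.13 to 0.18 does not contain the estimate of any of the 5 factors called lower. The Prox1 interval is wider, with its lower end at -0.36, so that a fall like that of Tcf7l2 is within it.

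**Figure D2:**
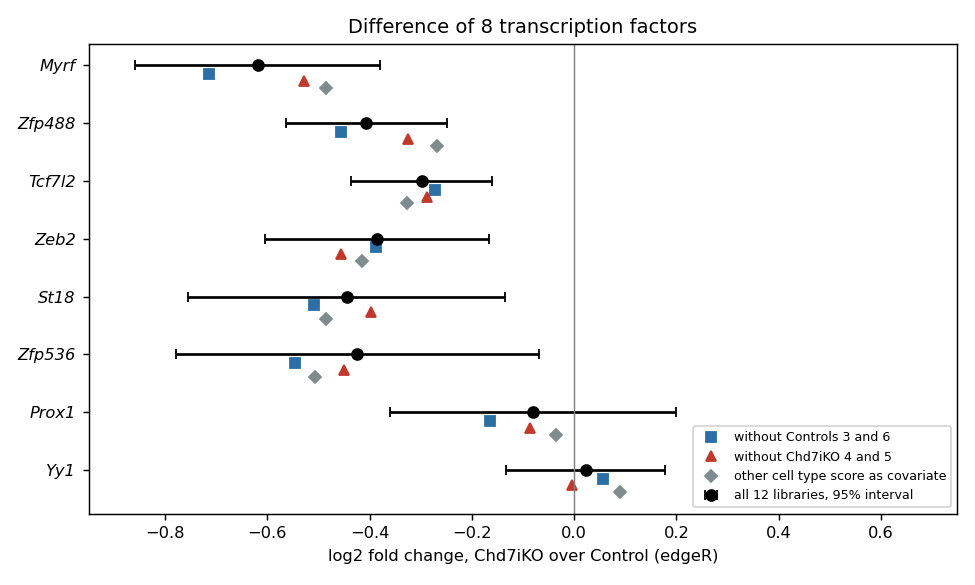
Log2 fold change (x axis) of each factor, Chd7iKO over Control, with the 95% interval of the edgeR fit to all 12 libraries (black) and the estimates without Controls 3 and 6, without Chd7iKO 4 and 5, and with the marker score as a covariate. Myrf is lowest at -0.62, the next 5 factors lie between -0.44 and -0.30, and Prox1 and Yy1 lie near 0.

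**Figure D3:**
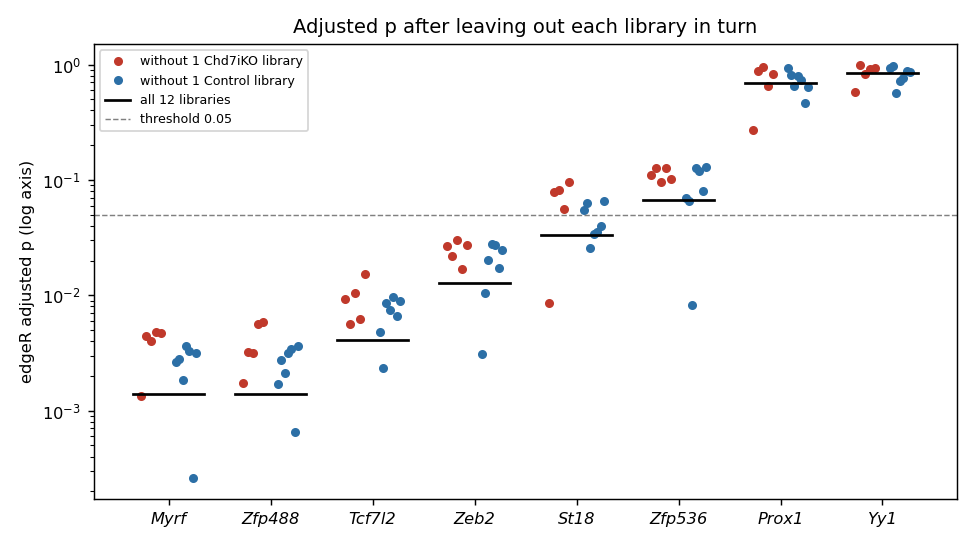
Adjusted p of the edgeR test (y axis, log scale) for each factor after leaving out 1 Chd7iKO library (red) or 1 Control library (blue), with the value for all 12 libraries as a black line. Myrf, Zfp488, Tcf7l2 and Zeb2 stay under 0.05 in all 12 refits, St18 in 5 of 12, and Zfp536 passes only without Control 3.

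Per length of exon (GENCODE M21), the levels kept the same order in both groups. In Chd7iKO libraries Zfp488 had 38.1 ± 3.10 CPM per kilobase (SD, n = 5), Myrf 25.4 ± 3.25, Zeb2 12.2 ± 1.28, Yy1 9.76 ± 0.618 and Tcf7l2 5.16 ± 0.410. St18 (2.02 ± 0.407), Prox1 (1.95 ± 0.361) and Zfp536 (1.14 ± 0.0649 CPM per kilobase) were the lowest. In Control libraries the levels were 50.5 ± 4.97 for Zfp488 (SD, n = 7), 39.0 ± 5.88 for Myrf, 15.9 ± 2.30 for Zeb2, 9.61 ± 0.964 for Yy1 and 6.35 ± 0.433 CPM per kilobase for Tcf7l2. St18, Prox1 and Zfp536 stood at 2.75 ± 0.493, 2.06 ± 0.320 and 1.52 ± 0.393 CPM per kilobase there. The mean ± SD ranges of St18 and Prox1 overlapped in both groups, as did those of Prox1 and Zfp536 in Control libraries. These lengths may differ from the authors', whose annotation no source used here names.

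Binding status came from the authors' deposited lists of genes bound by Chd7 and Chd8, which carry no values and do not say how sites were tied to genes. The factor with the largest fall, Myrf, was in none of these lists under its symbol or its RefSeq synonyms. Zfp488 was listed only as bound by Chd8 without Chd7 in precursors (OPCs), a list that held 32.0% of all tested genes. The other 6 were listed as bound by Chd7 in OPCs, a list that held 39.4% of all tested genes. Of these 6, Tcf7l2, Zeb2, St18, Zfp536 and Yy1 were listed as bound in OPCs and oligodendrocytes alike (1699 of the 14107 tested genes), and Prox1 in OPCs only (27.3%). Tcf7l2, Zeb2, Zfp536, Prox1 and Yy1 were bound by both remodellers in OPCs (34.8% of tested genes), and St18 by Chd7 without Chd8 (4.60%). Of the 6 Chd7-bound factors, 3 were called lower here and 3 were not called, and of all tested genes on the list of Chd7-bound genes in OPCs 16.2% were called lower, beside 13.8% of all tested genes. The share called lower was 23.7% on the list common to OPCs and oligodendrocytes and 12.8% on the OPC-only list. Myrf and Zfp488, outside the list, were called lower, and no difference by binding was tested. The authors' list of Chd7-bound genes that went down holds Tcf7l2, Zeb2, St18 and Zfp536. That list was chosen on these libraries and is no independent evidence of direction.

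The 8 factors did not vary in 1 common way among libraries. Likeness was measured as the root mean square difference of log2 CPM, each gene centred on its own mean, over the 12 libraries of both groups. The values are not scaled, so the measure also holds the group difference and the size of each gene's variation. A low value need not mean shared variation: Tcf7l2 and Yy1, which was not called, were at 0.197. Tcf7l2 and Zeb2 were the closest pair, at 0.147, and Zfp488 was the factor closest to Myrf, at 0.180, with St18 next at 0.218. Myrf and Yy1 were the farthest apart, at 0.413. Controls 1 and 2 had the highest Myrf levels (378 and 401 CPM) but the lowest Zeb2 levels among Controls (247 and 271 CPM), and Control 7 was the highest Control for Zeb2, Tcf7l2 and Zfp536. With predicted genes, pseudogenes and similar names left out, the 5 genes nearest to Myrf were Slc24a3, Lgi3, Rnf112, Vldlr and Sv2a. In order, they are a cation exchanger, secreted leucine-rich repeat protein, ring finger protein, lipoprotein and reelin receptor, and synaptic vesicle protein. Their differences from Myrf were 0.0823 to 0.0898, beside a median of 0.391 over all genes. All 5 were called lower in Chd7iKO, with log2 fold changes of -0.64 (Rnf112) to -0.49 (Vldlr), a property that likeness to Myrf brings with it.

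Some partner factors of the lineage were also lower in Chd7iKO cells. Of 13 measured (Sp7 was not in the table), edgeR called 4 lower and 0 higher, and their median was -0.18 on the log2 scale. The share of calls was near the 29.5% of all genes called in either direction, while 13.8% of all genes were called lower. Sox10, which switches on Myrf and later acts with it on myelin genes, had 738 CPM in Chd7iKO and 1032 CPM in Control libraries (log2 fold change -0.48, SE 0.10, edgeR adjusted p = 0.00334). Sox8, its relative, fell by 0.63 on the log2 scale, the homeobox factor Nkx2-2 by 0.41 and Tcf12, an E-protein partner of the Olig factors, by 0.32. Olig2 did not pass (log2 fold change -0.18, edgeR adjusted p = 0.163), nor did Olig1 (-0.22, adjusted p = 0.0690), the deacetylases Hdac1 (0.08) and Hdac2 (0.10), or Zfp24 (-0.04), a zinc finger factor needed for myelination. Without Chd7iKO 4 and 5, 2 partners were called lower, and with the marker score as a covariate 1 was. Over all genes, 839 and 579 were called lower in these fits, beside 1943 in the fit of all libraries without covariate.

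Within a library, the Myrf level was also set beside Sox10 and Olig2, a choice made after the values were seen. The ratio of Myrf to Sox10 in CPM was 0.365, 0.282, 0.271, 0.302 and 0.258 in Chd7iKO 1 to 5, against 0.420, 0.427, 0.235, 0.289, 0.306, 0.292 and 0.341 in Control 1 to 7. The groups overlapped and the means of 0.296 ± 0.0422 in Chd7iKO (SD, n = 5) and 0.330 ± 0.0712 in Control libraries (SD, n = 7) differed by less than 1 SD. The ratio of Myrf to Olig2 was 0.243 to 0.400 in Chd7iKO and 0.290 to 0.536 in Control libraries, with 3 of 5 Chd7iKO libraries below every Control. The ratio of Zfp488 to Olig2 was 0.210 to 0.280 in Chd7iKO and 0.199 to 0.329 in Control libraries and overlapped as well. Control 3 was the lowest library for Myrf to Sox10 and for Zfp488 to Olig2. Without Controls 3 and 6, a choice made after seeing the data, 3 of 5 Chd7iKO libraries were below every Control for Myrf to Sox10, and 4 of 5 for each of the other ratios. The mean of Myrf to Sox10 was then 0.296 ± 0.0422 in Chd7iKO (SD, n = 5) and 0.357 ± 0.0642 in Control libraries (SD, n = 5). Without Chd7iKO 4 and 5, 0 of 3 Chd7iKO libraries were below every Control for Myrf to Sox10 and for Zfp488 to Olig2, and 2 of 3 for Myrf to Olig2. These ratios are not scaled to length and serve only to compare libraries.

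**Figure D4:**
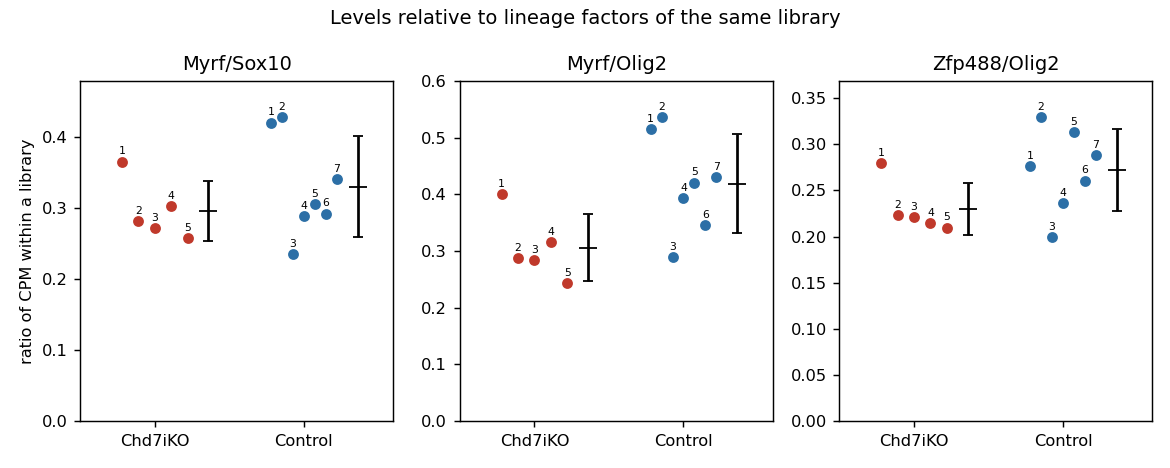
Ratio of CPM within a library (y axis, from 0) of Myrf to Sox10, Myrf to Olig2 and Zfp488 to Olig2, in 5 Chd7iKO (left) and 7 Control libraries (right). Points are libraries with their number and bars the mean ± SD. The groups overlap in all 3 ratios.

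Genes that Myrf binds or activates were called in both directions, at shares near those of all genes. Of 20 in the list, 19 were measured (Opalin was not in the table), of which 4 fell, 3 rose and 12 did not pass, beside 13.8% of all genes called lower and 15.8% called higher. The list median was -0.12 on the log2 scale. Among the genes at the highest level were Mbp, Cnp and Nfasc. The myelin basic protein gene Mbp had 1979 CPM in Chd7iKO and 2060 CPM in Control libraries (log2 fold change -0.06, SE 0.14, edgeR adjusted p = 0.798). Cnp, a myelin enzyme, fell by 0.43, and Nfasc, an adhesion molecule of the node, stood at -0.10 (adjusted p = 0.645). The largest falls were in enzymes of myelin lipids, with Ugt8a, which makes galactosylceramide, at 204 CPM in Chd7iKO and 339 CPM in Control libraries (log2 fold change -0.73, edgeR adjusted p = 2.53e-05). Fa2h, the fatty acid 2-hydroxylase, fell by 0.57, and Gsn, the actin-severing protein gelsolin, by 0.36.

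The list members that rose were named after their values were seen. Among them were the transferrin gene Trf (29.0 CPM in Chd7iKO and 20.5 CPM in Control libraries, log2 fold change 0.50, edgeR adjusted p = 0.0443) and Tmem98 (0.22, adjusted p = 0.0453), whose protein blocks the self-cleavage of Myrf. These rises were weakly held, since 0 genes of the list were called higher without Chd7iKO 2, 4 or 5 and 1 without Control 4 or 5. Calls were also fewer over all genes, with 1682, 1727 and 1397 higher without Chd7iKO 2, 4 or 5, beside 2224 with all libraries. Without Control 4 or 5 the genes called higher numbered 1797 and 1803. Without Controls 3 and 6 there was 1 list gene called higher, beside 2316 of all genes. Without Chd7iKO 4 and 5 there were 0, beside 908 of all genes. The falls were called in 4 or 5 genes in all of those refits. The late myelin gene Mog was low in both groups (11.5 CPM in Chd7iKO and 13.0 CPM in Control libraries), as was Ermn (1.65 CPM in Chd7iKO and 2.23 CPM in Control libraries).

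Of the 11 partners and relatives of Tcf7l2, 3 rose and 1 fell, around a median of 0.02 on the log2 scale, a share of calls near the 29.5% of all genes. Lef1 (6.66 CPM in Chd7iKO and 4.04 CPM in Control libraries, log2 fold change 0.72, edgeR adjusted p = 0.0196) and Tcf7 (0.32, adjusted p = 0.0497) are the related Wnt effectors that rose, and Ctnnb1, which encodes beta-catenin, rose by a log2 fold change of 0.18. The corepressor gene Tle4 fell by 0.51, from a list in which Tle1, Tle2 and Tle3 did not pass. Zbtb33, or Kaiso, a reported partner of Tcf7l2 in early differentiation, stood at -0.15 (adjusted p = 0.0505). Without Chd7iKO 4 and 5, or with the marker score as a covariate, 0 of these genes were called higher. Over all genes, 908 and 629 were called higher in these fits, beside 2224 in the fit of all libraries without covariate. Without Chd7iKO 4 alone 1 was, without Chd7iKO 5 alone 0, and 1 to 3 were called lower when single libraries were left out.

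Among 11 genes of BMP, TGF-beta and Notch signalling listed for Zeb2, 3 rose and 1 fell, and the median was 0.03 on the log2 scale. Whether they act downstream of Zeb2 in these cells was not tested. This share of calls, too, is near the 29.5% of all genes. Smad3, a mediator of TGF-beta signals, had 96.9 CPM in Chd7iKO and 59.9 CPM in Control libraries (log2 fold change 0.69, SE 0.11, edgeR adjusted p = 5.11e-04), and the Notch effector Hes1 rose by a log2 fold change of 0.53 (adjusted p = 0.00688). Smad5 rose slightly (0.17, adjusted p = 0.0492) and Smad1, a BMP mediator like Smad5, fell by 0.27 on the log2 scale. Smad7, which Zeb2 is known to induce, had a log2 fold change of 0.07 (SE 0.094, adjusted p = 0.629). Id2 (0.21), Id4 (-0.11), Hes5 (-0.25) and Hey2 (0.03) did not pass. Of these 11 genes, 3 were called higher without Controls 3 and 6, 2 without Chd7iKO 4 and 5 and 1 with the marker score as a covariate. Over all genes, 2316, 908 and 629 were called higher in these fits.

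Of 12 paralogs of the 8 factors, 9 were measured, of which 3 rose and 0 fell in edgeR. The share of calls was near the 29.5% of all genes called in either direction, while 15.8% of all genes were called higher. Limma voom called 1 paralog lower and 3 higher. Zeb1, the relative of Zeb2, had 379 CPM in Chd7iKO and 332 CPM in Control libraries and was higher in every Chd7iKO library than in any Control (log2 fold change 0.19, SE 0.047, edgeR adjusted p = 0.00874), while the other 2 were Lef1 and Tcf7. Myt1 (-0.18), a relative of St18 abundant in precursors, Myt1l (0.05), Yy2 (0.07) and Prox2 (0.15) did not pass. Without Chd7iKO 4 and 5 together 0 paralogs were called higher, without either alone 1 was, and with the marker score as a covariate 0 were. Over all genes, 908 were called higher without both, 1727 without Chd7iKO 4, 1397 without Chd7iKO 5 and 629 with the covariate. Of 7 genes that Yy1 represses or works with, Ezh2, the Polycomb methyltransferase, rose (0.34, adjusted p = 0.0444) and Tcf7l2 fell, while Hdac1, Id4, Ino80, Rybp and Ring1 did not pass. That share of calls is also near the 29.5% of all genes. The Ezh2 call was lost when Control 1, 2, 4, 5 or 7, or any of Chd7iKO 2 to 5, was left out.

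**Figure D5:**
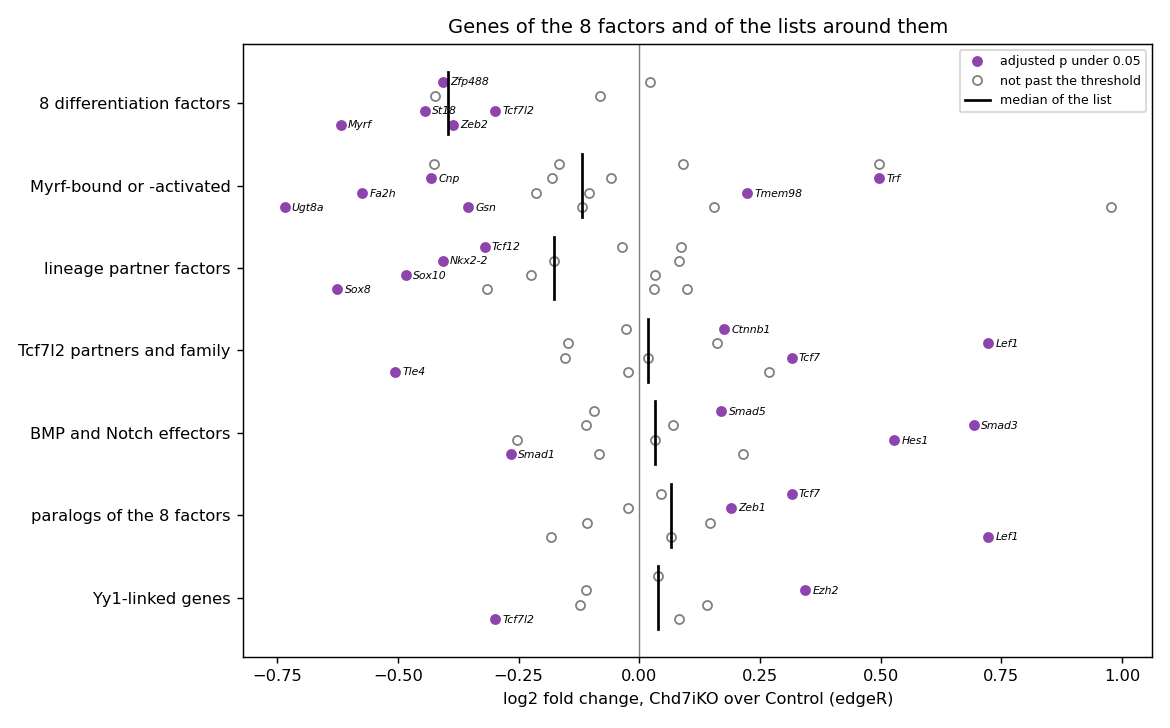
Log2 fold change (x axis), Chd7iKO over Control, of genes in the 8 factors and in 6 lists around them. Filled points passed an edgeR adjusted p of 0.05 and are named, open points did not, and black bars are medians over all measured genes of a list, of which 2 are not drawn. The 8 factors have the lowest median, -0.40, and the other medians lie between -0.18 and 0.07.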

How the data were processed

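The authors deposited estimated counts per gene for 12 libraries, and in the same table a log2 fold change, a p-value and an adjusted p-value of their own comparison, used here only where named. Their gene lists hold symbols only. The tools TopHat2, featureCounts, Bowtie and edgeR and the build mm10 appear in the submitters' processing notes, with no role or order, and with the gene annotation not given in the sources used here. Of the estimated counts, 1.76% were not whole and all were rounded. Groups came from the sample titles.

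Counts were tested with edgeR 4.0.16 (R 4.3.3): TMM scaling, filterByExpr (0 genes removed), the quasi-likelihood F-test without covariate, and Benjamini-Hochberg adjustment over 14107 genes. Log2 CPM used a prior count of 2. Alternatives used DESeq2 1.42.0, limma 3.58.1, other scalings, filters and thresholds, a marker covariate and fewer libraries. No replicate pair agreed within sampling noise (lowest chi-square per degree of freedom 9.14). The code was tested on simulated counts. Coordinates and exon lengths are from GENCODE M21.

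The 8 factors, the lists and the libraries left out together were chosen with earlier results of these data known. Named genes are the 8 factors, members of the 6 lists (of the Myrf list, the 4 at the highest level and 4 with the smallest adjusted p), cell type markers and nearest profiles. Exceptions are named as such. Results for some list genes are not reported here. The autism and gene ontology tables were not used here.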

Additional observations from a re-analysis of the deposited data

How the results depend on the processing

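Myrf stayed lower and past the threshold in all 24 alternatives (log2 fold change -0.72 to -0.48), and so did Tcf7l2. Among these, the fit without a filter equals the main fit, since the filter removed 0 genes. The 0.01 threshold reuses the estimates of the main fit. Leaving out single libraries gave -0.68 to -0.55 for Myrf, 4 to 6 of the 8 factors called lower and 2690 to 4612 genes called, the lowest without Chd7iKO 5. Of the 8 factors, 3 were called lower at an adjusted p under 0.01 and 2 with the marker score as a covariate. Against 4167 genes called in all, limma voom called 6462, the 0.01 threshold 2056, the covariate fit 1208 and the fit without Chd7iKO 4 and 5 1747, of which 1719 were shared with the same direction. The cause was not tested. Yy1, never called, changed sign without Chd7iKO 4 and 5 (-0.0045) and without Control 1 (-0.0092); leaving out single libraries gave up to 0.0585. Replicate numbers did not pair the libraries: correlations of same-numbered deviations ran from -0.18 to 0.38, and 1 of 5 Chd7iKO libraries correlated best with the Control of its own number. With the replicate block, Myrf stood at -0.69, 5 factors were lower and 4780 genes were called. Levels of St18, Zfp536 and Prox1, at 8.21 to 21.9 CPM, were the lowest of the 8. The coefficient of variation in Chd7iKO and Control libraries was 20.2% and 17.9% for St18, and 18.5% and 15.5% for Prox1. For Zfp536 it was 5.71% and 25.8%. Whether low level or spread between libraries limits detection for them was not tested.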

Other observations

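The genes whose profiles over the 12 libraries were nearest to the other factors are given as values only. Predicted genes, pseudogenes and similar names were again left out. Camsap2, a microtubule minus-end protein, was nearest to Zfp488 (root mean square difference 0.0549 log2 CPM), with 314 ± 22.2 CPM in Chd7iKO (SD, n = 5) and 412 ± 35.6 CPM in Control libraries (SD, n = 7), and Rab11fip2, a recycling endosome protein, was second at 0.0604. Mpv17 (0.0622) and Rab2b (0.0627) were nearest to Tcf7l2, and Fsd1 (0.0893) and the GABA receptor subunit Gabrb2 (0.0942) to Zeb2. Cask, a synaptic scaffold kinase, stood nearest to St18 at 0.147, with Gpr146 next at 0.148. Ksr2 (0.158) and Cobl (0.161) were nearest to Zfp536, Zfp758 (0.0928) and Mbd5 (0.0955) to Prox1, and the transcription factor Creb1 (0.0432) and the telomere protein Pot1a (0.0464) to Yy1. Creb1 had 84.6 ± 4.22 CPM in Chd7iKO and 81.7 ± 6.58 CPM in Control libraries. The median difference over all genes was 0.280 for Zfp488 and 0.211 for Yy1.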
